A study of Mus musculus with 8 samples.

Results

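The genes of the respiratory chain and ATP synthase were followed in bone marrow mesenchymal stem cells under osteogenic differentiation. Members were taken, and assigned to a complex, by gene symbol alone. Nduf genes were counted under complex I, Sdh genes under complex II and Uqcr genes under complex III. Cox4 to Cox8 genes were counted under complex IV and Atp5 genes under complex V. The protein-coding genes of mitochondrial DNA (Mt-nd, Mt-cyb, Mt-co and Mt-atp) were included as well. Ndufa4 and Ndufa4l2 thus stand under complex I by name only, and their place in that complex was not checked. The rule found 97 of 26873 features, 84 encoded in the nucleus (36 for complex I, 4 for complex II, 8 for complex III, 19 for complex IV and 17 for complex V) and 13 encoded in mitochondrial DNA (7 for complex I, 1 for complex III, 3 for complex IV and 2 for complex V). It matched 101 rows, of which 4 symbols were repeated (Cox6b1, Ndufa10l1, Ndufv3 and Uqcrb). For each of these the identifier with more counts was used.

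The cells are labelled as a wild-type BMSC line kept in complete medium with serum. Medium in which polycaprolactone (PCL) scaffolds had been soaked was the treatment. By the design text there were groups with the S7 peptide, with the E7 peptide, with both and with neither, and these were read as PCL-S, PCL-E, PCL-SE and, by elimination, PCL-O. Each of these 4 arms has 1 library on day 3 and 1 on day 7. The extraction protocol speaks of 3 RNA samples, and any pooling of them was not given in the sources used here. Tests therefore pooled arms: PCL-S and PCL-SE (with S7) against PCL-O and PCL-E (without S7). Their p-values rest on the likeness of the arms put together, since cultures were not repeated within an arm and day.

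Total counts ran from 32950326 to 41754124 per library, and 15942 genes had enough counts to be tested. Of the members, 80 nuclear and all 13 mitochondrial genes were tested, whereas Cox6c-ps1, Cox7b2, Cox8b and Cox8c were listed at 0 in all 8 libraries. All 8 mesenchymal stromal markers on the list used were tested, and their summed level was 5231 to 6118 CPM, that is, counts relative to the library's total, on day 3. On day 7 it was 5080, 3403, 4889 and 3312 CPM, lower in both arms with S7, with Vcam1 at most 0.503 CPM in any library. Of these 8, 2 were called higher and 3 lower for S7 on day 7: Itgb1 stood at 3500, 1841, 3503 and 1718 CPM, and Cd44 at 225.2, 505.5, 290.0 and 503.4 CPM. Their part in the member differences was not tested. None of the 7 blood cell markers had enough counts for a test (0.0911 to 1.88 CPM in sum), and Cd3e and Adgre1 were at 0 throughout. The gene identifiers in the table are rat Ensembl identifiers (22050 features, with 0 mouse identifiers), although the labels name mouse. Fewer cells of a type and less RNA per cell cannot be told apart in these bulk libraries.

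Complex I takes electrons from NADH and complex II takes them from succinate. Both pass them through coenzyme Q to complex III, then through cytochrome c to complex IV, which reduces oxygen, and ATP synthase (complex V) uses the resulting proton gradient. All complexes except complex II combine proteins from both genomes, so the subunits must be supplied by nuclear transcription with import and by transcription inside the organelle. Mitochondrial DNA is transcribed from both strands into long precursors that are cut into separate messenger RNAs. In bone marrow stromal cells, oxidative phosphorylation is known to gain weight over glycolysis as osteoblasts form.

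The nuclear and the mitochondrial class moved apart in the arms with S7 on day 7 and not on day 3. As a share of all counts, the nuclear class held 4534 CPM in PCL-O, 4727 in PCL-S, 4798 in PCL-E and 4904 in PCL-SE on day 3. On day 7 it held 4386, 8915, 5222 and 8833 CPM in the same order of arms. Both day 7 libraries with S7 lay above the other 6, and PCL-S was 2.03 times PCL-O. The mitochondrial class held 32861, 32346, 33778 and 33471 CPM on day 3 and 30866, 35052, 38481 and 34148 CPM on day 7. Here the day 7 libraries with S7 lay between PCL-O and PCL-E. There were 7.25, 6.84, 7.04 and 6.83 mitochondrial counts per nuclear count on day 3 and 7.04, 3.93, 7.37 and 3.87 on day 7. The ratio needs no scaling between libraries, and it was under 4 only in the day 7 libraries with S7.

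**Figure D1:**
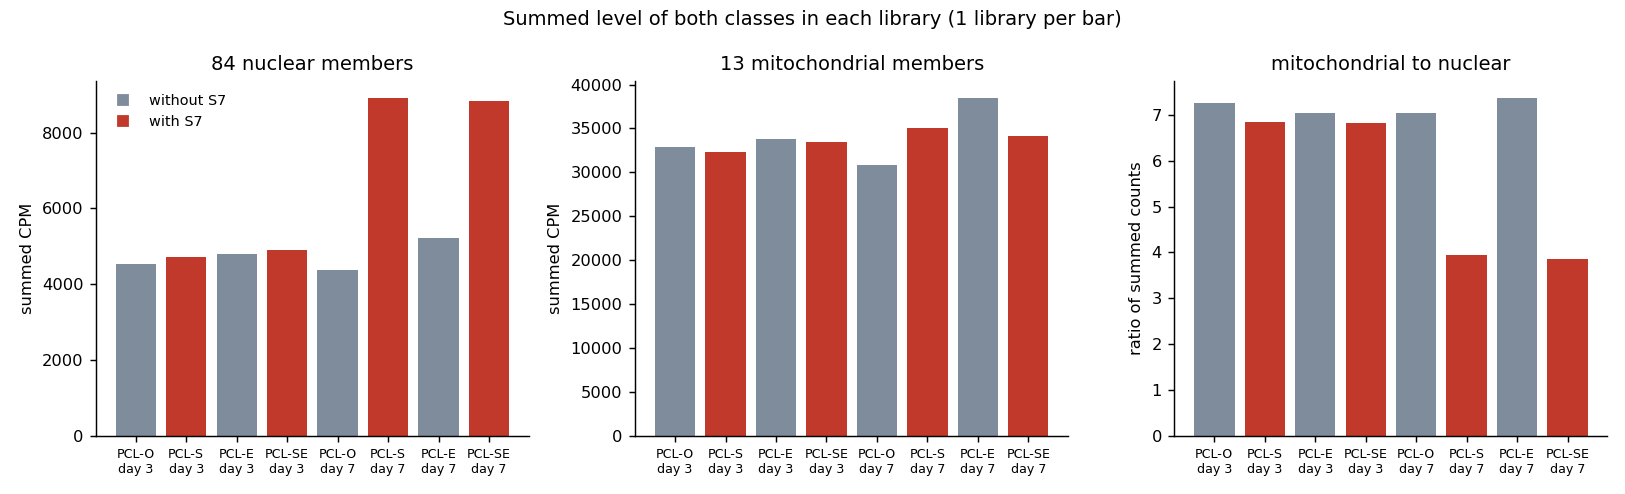
Summed CPM of the 84 nuclear members and of the 13 mitochondrial members, and the ratio of their summed counts, in each of the 8 libraries (1 bar per library, red with S7 and grey without). The nuclear sum stands at 8915 and 8833 on day 7 in PCL-S and PCL-SE and at 4386 to 5222 in the other 6 libraries, and the ratio falls to 3.93 and 3.87 there.

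All 5 complexes shared in the nuclear rise. From PCL-O to PCL-S on day 7, the plain CPM sum of nuclear complex I went from 1219 to 2455, of complex II from 262.7 to 561.2, of complex III from 432.2 to 873.7, of complex IV from 768.0 to 1508 and of complex V from 1705 to 3517. The ratios ran from 1.96 (complex IV) to 2.14 (complex II), and those of PCL-SE to PCL-O from 1.88 (complex IV) to 2.20 (complex II). For PCL-E they lay between 1.14 (complex I) and 1.27 (complex II). On day 3 every ratio to PCL-O, over the 5 complexes and 3 arms, lay between 0.957 and 1.10.

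Member by member, 72 of the 80 nuclear genes tested were higher with S7 on day 7 and 1 was lower, at an edgeR adjusted p under 0.05. Their median log2 fold change was 0.62, or 1.54-fold. Over all genes tested, 24.9% were called higher and 26.2% lower, with a median of -0.03, and among the 6983 genes with a mean of at least 20 normalised CPM 34.4% were higher and 29% lower. Fold changes use counts scaled by TMM, which sets the typical gene to no change. Without TMM the median of all genes on this contrast moved by 0.22, the nuclear median was 0.85 with 75 members higher, and the mitochondrial median was -0.40. By complex, 34 of 36 were higher in complex I (median 0.74), 4 of 4 in complex II (0.67), 6 of 8 in complex III (0.64), 11 of 15 in complex IV (0.52) and 17 of 17 in complex V (0.60). In the same comparison none of the 13 mitochondrial genes was called higher and 10 were lower, with a median of -0.62. Both levels with S7 lay above both without S7 for 75 of 80 nuclear members (36.7% of all genes) and below them for 10 of 13 mitochondrial members (38.4% of all genes).

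On day 3 no nuclear member was called higher and Cox6a2 alone was lower, beside 7.1% and 6.87% of all genes, and no mitochondrial member was called in either direction. The medians were 0.05 in both classes. At an unadjusted p under 0.05 there were 19 of 80 nuclear members and 1 of 13 mitochondrial members, against 4646 of all genes. In DESeq2, 2 nuclear members were higher, 2 lower and 1 mitochondrial member lower on day 3. The day 3 counts also depended on single day 7 libraries. Without PCL-O day 7 or PCL-E day 7 more genes were called, among the nuclear members and among all genes. The nuclear median lay between 0.030 and 0.056 when any 1 library was left out.

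**Figure D2:**
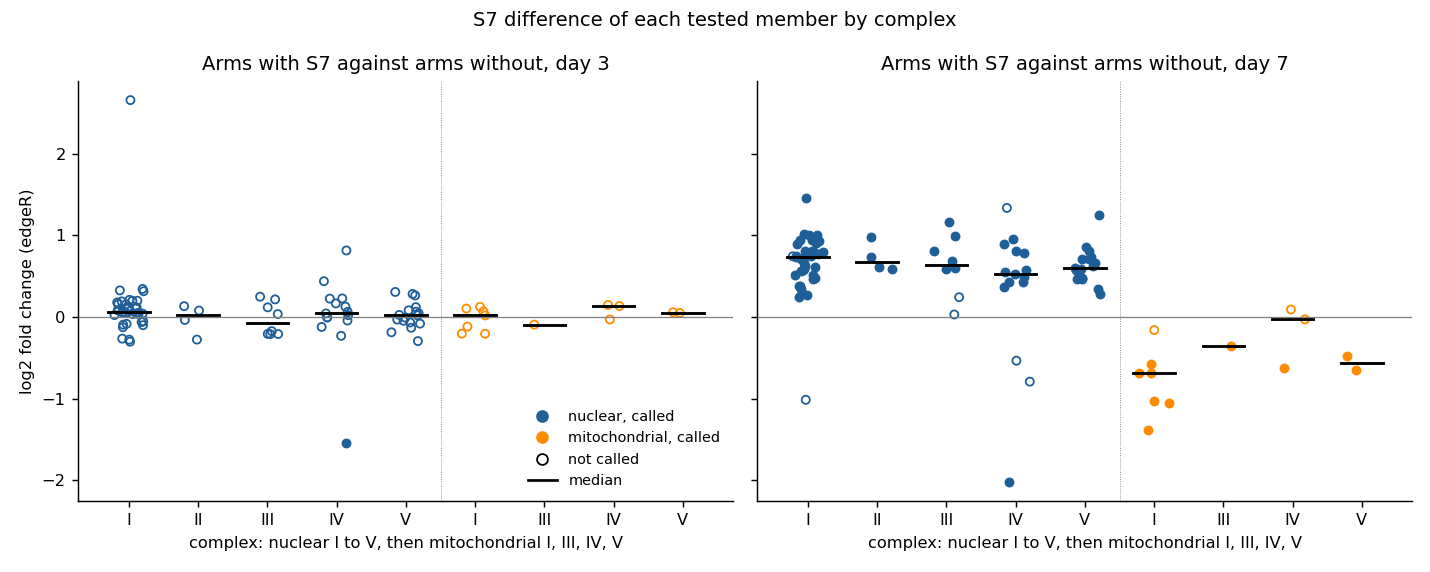
Log2 fold change of each tested member in the arms with S7 against those without, on day 3 (left) and day 7 (right), by complex and genome; filled points passed the test, open points did not, and bars are medians. On day 7 the nuclear medians lie between 0.52 and 0.74 and the mitochondrial complex I median lies below 0, whereas on day 3 all medians lie near 0.

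Complex I held the largest nuclear rise. In the order PCL-O, PCL-S, PCL-E, then PCL-SE, which is kept from here on, Ndufs7, an iron-sulfur subunit next to the quinone site, stood at 19.7, 24.2, 23.0 and 24.0 normalised CPM on day 3 and at 20.6, 59.6, 22.6 and 58.8 on day 7. Only the day 7 libraries with S7 stand apart, and the log2 fold change on day 7 was 1.46 ± 0.10 (SE, edgeR quasi-likelihood test, adjusted p = 0.000151). Ndufa7, an accessory subunit, stood at 36.5, 31.5, 40.9 and 31.3 on day 3 and at 30.4, 61.8, 31.2 and 61.4 on day 7. Its levels with S7 were below the others on day 3 (-0.30 ± 0.08, adjusted p = 0.0560) and above them on day 7 (1.00 ± 0.08, adjusted p = 0.000259).

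The other complex I subunits named here moved less far than Ndufs7 on day 7. Ndufa9, an accessory subunit of the matrix arm, stood at 51.3, 54.0, 54.1 and 54.6 normalised CPM on day 3 and at 47.9, 99.8, 52.4 and 101.9 on day 7 (1.01 ± 0.07, edgeR adjusted p = 0.000194). Ndufs1, the large iron-sulfur subunit at the entry of electrons, stood at 85.3, 85.7, 85.2 and 94.2 on day 3 and at 79.9, 101.1, 99.1 and 113.4 on day 7. Its PCL-E value on day 7 was close to PCL-S, and the rise was small (0.26 ± 0.09, edgeR adjusted p = 0.0487). Ndufv1, which binds NADH, rose by 0.75 ± 0.10 (edgeR adjusted p = 0.00129), from 65.8 in PCL-O to 124.7 in PCL-S on day 7. The 2 complex I genes not called were Ndufa1 and Ndufa4l2. Ndufa1 stood at 5.37, 6.12, 4.02 and 9.92 on day 7 (0.74 ± 0.26), just outside the threshold.

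Complex II is succinate dehydrogenase, which also works in the tricarboxylic acid cycle and has no mitochondrially encoded subunit. Sdhb, its iron-sulfur subunit, stood at 54.4, 54.4, 53.4 and 59.6 normalised CPM on day 3 and at 51.5, 107.1, 53.6 and 99.3 on day 7. Sdha, the flavoprotein that oxidises succinate, stood at 109.5, 119.7, 111.6 and 122.7 and then at 93.0, 161.0, 109.8 and 176.3. Both were high only in the day 7 libraries with S7, where their log2 fold changes were 0.97 ± 0.09 (edgeR adjusted p = 0.000305) and 0.74 ± 0.08 (adjusted p = 0.000764). The membrane anchors followed. Sdhc went from 83.3 and 106.3 without S7 to 143.0 and 145.1 with it on day 7 (0.61 ± 0.11, edgeR adjusted p = 0.00340), and Sdhd from 47.4 and 56.4 to 77.1 and 78.2 (0.58 ± 0.09, edgeR adjusted p = 0.00214).

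In complex III, Uqcrc1, a core subunit of the matrix side, stood at 91.7, 111.3, 100.4 and 116.8 normalised CPM on day 3 and at 91.6, 218.6, 103.9 and 220.2 on day 7. Uqcr10, a small subunit, stood at 22.9, 18.8, 22.6 and 21.6 and then at 23.1, 43.4, 19.8 and 41.6. Both rose on day 7, by 1.17 ± 0.08 (edgeR adjusted p = 0.000165) and by 0.99 ± 0.11 (adjusted p = 0.000715). Uqcrc2, the other core subunit, did not pass: it stood at 104.2, 133.1, 132.0 and 145.5 on day 7, with PCL-E level with PCL-S (0.24 ± 0.10, edgeR adjusted p = 0.0908). Uqcrb, which helps to bind quinone, stood at 36.1, 30.5, 30.2 and 37.3 on day 7, so that the groups overlapped (0.03 ± 0.13, edgeR adjusted p = 0.860). A second identifier carries the name Uqcrb and did not pass either (0.13 ± 0.11, edgeR adjusted p = 0.361). Of the other repeated names, the second Ndufa10l1 was called higher (0.27, edgeR adjusted p = 0.0284) and the second Cox6b1 did not pass (0.42, adjusted p = 0.0656). The second Ndufv3 was called lower (-2.02 ± 0.48, edgeR adjusted p = 0.0125), opposite to the identifier used (0.71). Its day 7 levels were 0.922, 0.185, 0.540 and 0.161 normalised CPM. How reads were divided between such copies was not given in the sources used here, and the counts of small subunits with near-identical copies are uncertain.

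The largest rise in complex IV among members of at least 5 CPM was Cox7a2, the widely expressed form of subunit VIIa. It stood at 36.0, 38.0, 39.0 and 38.2 normalised CPM on day 3 and at 36.1, 66.6, 34.4 and 69.5 on day 7 (0.95 ± 0.08, edgeR adjusted p = 0.000285). Cox5a, a subunit on the matrix side, went from 52.3 and 56.7 without S7 to 107.6 and 94.9 with it on day 7 (0.89 ± 0.09, edgeR adjusted p = 0.000567). Cox4i1, the common form of the subunit that starts assembly of the holoenzyme, stood at 179.5, 181.9, 182.9 and 191.8 and then at 145.7, 224.5, 161.1 and 216.5. Its rise of 0.52 ± 0.08 (edgeR adjusted p = 0.00231) was near the median of the complex.

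Complex V had every tested nuclear member called higher, over a range of 0.29 (Atp5pb, of the peripheral stalk) to 1.25 (Atp5if1). Atp5if1, the inhibitor that blocks ATP hydrolysis by the synthase, stood at 38.4, 49.2, 44.8 and 50.4 normalised CPM on day 3 and at 45.2, 115.8, 53.3 and 117.1 on day 7 (1.25 ± 0.09, edgeR adjusted p = 0.000186). Atp5f1b, the catalytic beta subunit and the nuclear member with the most counts, stood at 681.9, 710.8, 699.8 and 734.8 and then at 594.3, 1080, 720.3 and 1069. It rose by 0.71 ± 0.10 (edgeR adjusted p = 0.00140). The 3 genes for the rotor ring, Atp5mc1, Atp5mc2 and Atp5mc3, encode the same mature protein and rose by 0.71, 0.74 and 0.86.

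Of the tissue forms Cox6a2, Cox6b2, Cox4i2 and Cox7a1, Cox6a2 passed in the S7 comparisons and the others did not. Cox6a2, the heart and muscle form of subunit VIa, stood at 2.85, 1.24, 2.30 and 0.565 normalised CPM on day 3 and at 3.56, 0.686, 2.75 and 0.830 on day 7. It was lower in both arms with S7 on both days, by -1.54 (edgeR adjusted p = 0.0324) and by -2.02 ± 0.35 (adjusted p = 0.00348), while the common form Cox6a1 rose on day 7 (0.79 ± 0.10, adjusted p = 0.00103). The day 3 call was lost without any 1 of the 4 day 3 libraries (adjusted p = 0.0888 to 0.201). The summed level of a list of skeletal muscle markers, carried mostly by Acta1 and Myh2, was 265.6, 73.8, 171.9 and 73.7 CPM on day 3 and 99.4, 5.46, 34.4 and 3.39 CPM on day 7, with 5 of its 6 genes tested. For S7, 1 was called higher and 1 lower on day 3, and 1 higher and 2 lower on day 7; Des went the other way on day 7, at 0, 1.55, 0.216 and 0.720 CPM. In PCL-O Acta1 and Myh2 held 157.7 and 107.0 CPM of it on day 3, Ckm, Myog and Tnnt3 were under 1 CPM in all libraries, and the list's part in the fall of Cox6a2 was not tested.

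Ndufa4l2, a relative of Ndufa4 known as a target of hypoxia signalling, was low in all libraries. It was near the detection limit in PCL-O on day 3 (3 counts) and PCL-SE on day 7 (5 counts). On day 3 it had 67 counts in PCL-S and 58 in PCL-SE, where 3 counts equal 0.0718 to 0.0910 CPM over the libraries. It stood at 0.0930, 1.76, 0.485 and 1.82 normalised CPM on day 3 and at 0.381, 0.290, 0.446 and 0.115 on day 7. The arms with S7 were above the others on day 3 (2.66, edgeR adjusted p = 0.0534) and below them on day 7 (-1.01, adjusted p = 0.311). The change of the difference between the days passed (-3.67 ± 1.04, edgeR adjusted p = 0.0396), but in the fits that left out 1 library it did not in 7 of 8. Cox4i2 (1.34 ± 0.51, edgeR adjusted p = 0.0671 on day 7), Cox6b2 and Cox7a1 did not pass, with levels under 5 CPM. Per length, in the authors' FPKM, the common form was far above the tissue form in every library. In PCL-O on day 3 Cox4i1 stood at 217.2 against 1.49 for Cox4i2, and Cox6a1 at 251.4 against 5.25 for Cox6a2.

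**Figure D3:**
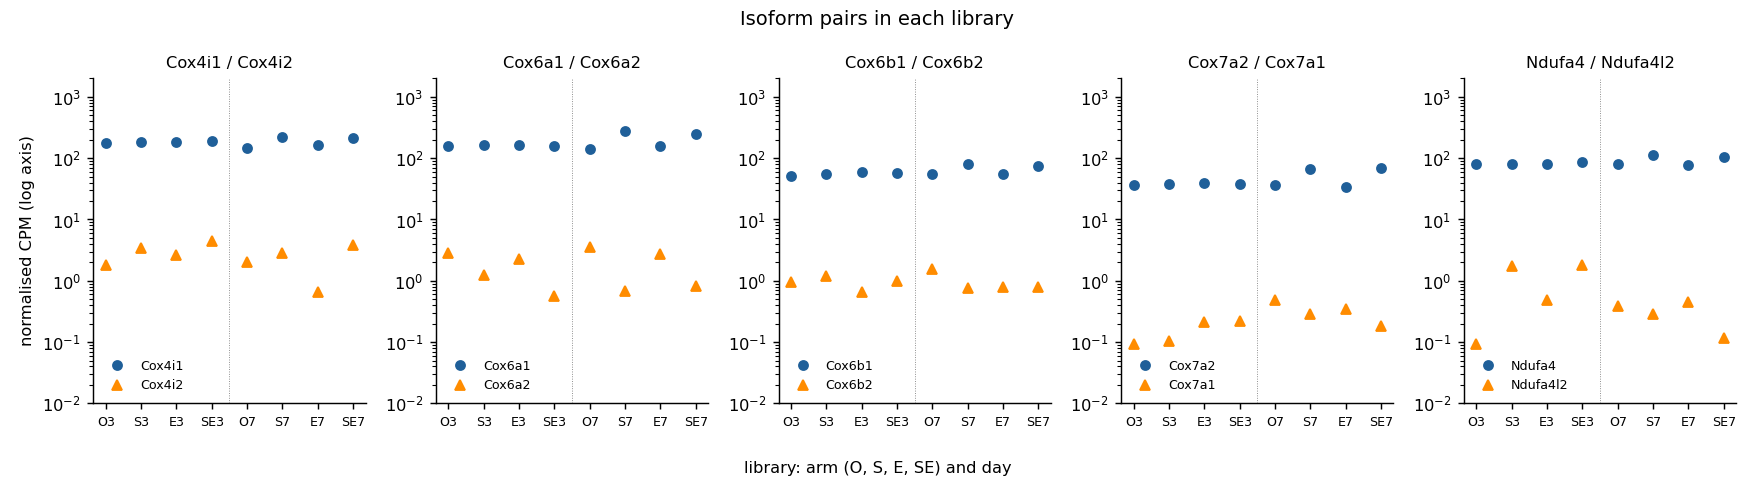
Normalised CPM (log axis) of 5 pairs of a common form (circles) and a tissue form or relative (triangles) in the 8 libraries, in the order of arms O, S, E, SE on day 3 and then day 7. All circles are above all triangles in each panel; on day 7 the circles are higher in both arms with S7, and the Cox6a2 triangles are lower there.

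Promoter sequences were read for the nuclear members after their changes had been seen. NRF1, GABPA and YY1 are transcription factors known to bind upstream of many respiratory genes. The promoter table holds mouse RefSeq windows (GRCm38.p6, from 250 bases before a gene's start to 50 after), and 66 of 84 members were matched, 53 by symbol and 13 by an older symbol, giving 71 windows. The identifiers measured are rat, so these windows describe the mouse genes of the same names. The NRF1 core (GCATGCGC, either strand) was in 14.1% of member windows and 2.71% of all 32851 windows. The GABPA core (CCGGAAG, either strand) was in 23.9% against 8.86%, and the YY1 core (AAGATGGC, either strand) in 12.7% against 2.75%. A TATA box (TATAAA, either strand) was in 12.7% against 13.6%. Of the 10 members with the NRF1 core, 4 stretches of 120 bases are shown, from complexes I, II, IV and V. Capitals mark the letters of the core, with overlapping matches run together. These 4 stretches belong to the members with the largest S7 changes on day 7 among those whose core lies wholly before the start. They lie at chr4:140961151-140961270 (Sdhb, plus strand), chr15:82354315-82354434 (Ndufa6, minus strand), chr5:115349061-115349180 (Cox6a1, minus strand) and chr15:102671048-102671167 (Atp5mc2, minus strand, listed as Atp5g2).
Sdhb: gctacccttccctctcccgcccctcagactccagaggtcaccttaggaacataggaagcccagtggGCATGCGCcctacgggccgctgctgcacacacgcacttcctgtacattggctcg
Ndufa6: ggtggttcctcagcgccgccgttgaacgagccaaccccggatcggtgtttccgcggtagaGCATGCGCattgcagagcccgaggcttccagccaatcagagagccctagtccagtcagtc
Cox6a1: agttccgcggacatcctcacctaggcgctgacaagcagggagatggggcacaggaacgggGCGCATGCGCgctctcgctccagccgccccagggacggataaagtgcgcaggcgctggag
Atp5mc2: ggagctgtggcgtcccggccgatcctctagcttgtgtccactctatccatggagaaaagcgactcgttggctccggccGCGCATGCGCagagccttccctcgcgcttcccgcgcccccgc
The capitals begin 54 bases before the annotated start in Sdhb, 83 in Ndufa6, 162 in Cox6a1 and 42 in Atp5mc2. These genes were chosen by their changes on day 7, which were 0.97, 0.95, 0.79 and 0.74. The other members with the NRF1 core rose by 0.47 (Atp5me) to 1.17 (Uqcrc1) on day 7. Ndufs7, with the largest rise, has a YY1 core and no NRF1 core among the letters searched. A match is a description of letters and not a measured binding site. All 32851 windows served as background, whether or not their genes were expressed in these cells. The members were not compared with other expressed genes. Whether members with a core changed differently from those without was not tested.

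The mitochondrial class was led by the Mt-nd genes, which encode the membrane core of complex I. Mt-nd5 stood at 2249, 1900, 2124 and 1896 normalised CPM on day 3 and at 2065, 1037, 2110 and 973.8 on day 7. Mt-nd4l stood at 508.6, 492.0, 484.3 and 514.7 and then at 475.1, 249.6, 517.5 and 238.9. Mt-nd6 stood at 191.2, 147.8, 136.5 and 135.1 and then at 183.4, 81.0, 222.3 and 75.2. All 3 were low only in the S7 libraries of day 7, where they fell by 1.06 ± 0.08 (edgeR adjusted p = 0.000236), 1.02 ± 0.09 (adjusted p = 0.000294) and 1.39 ± 0.17 (adjusted p = 0.000868) on the log2 scale. Mt-nd6 is encoded on the opposite strand to its neighbours, and whether counting used the strand was not given in the sources used here, so its reads and antisense reads cannot be told apart.

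Mt-nd1, Mt-nd4 and Mt-nd2 fell less on day 7. Mt-nd1 stood at 1078, 759.2, 1233 and 670.8 (-0.69 ± 0.11, edgeR adjusted p = 0.00246), Mt-nd4 at 1498, 1101, 1889 and 1010 (-0.68 ± 0.13, adjusted p = 0.00537). Mt-nd2 stood at 1375, 1073, 1568 and 909.5 (-0.57 ± 0.12, edgeR adjusted p = 0.00685). On day 3 their levels spanned 1016 to 1172, 1566 to 1801 and 1252 to 1437. In normalised CPM both S7 libraries on day 7 thus lay below all day 3 libraries. In the authors' FPKM this held for Mt-nd1 and Mt-nd4 but not for Mt-nd2. There PCL-S on day 7 stood at 1119.5, above PCL-S (1046.7) and PCL-SE (1093.1) on day 3. Mt-nd3 was level, at 170.8, 176.5, 204.7 and 158.6 on day 7 (-0.16 ± 0.11, edgeR adjusted p = 0.265).

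The Mt-co genes, the catalytic core of complex IV, did not move together. Mt-co1 stood at 15204, 15053, 15806 and 15303 normalised CPM on day 3 and at 13115, 15044, 15482 and 15378 on day 7. Mt-co2 stood at 2429, 2692, 2540 and 2810 and then at 2286, 1706, 2837 and 1608. Mt-co3 stood at 3326, 3758, 3623 and 3864 and then at 3225, 3456, 3756 and 3368. On day 7 Mt-co2 fell with S7 (-0.62 ± 0.11, edgeR adjusted p = 0.00370), while Mt-co1 (0.09 ± 0.09, adjusted p = 0.435) and Mt-co3 (-0.03 ± 0.09, adjusted p = 0.816) had overlapping groups. Mt-co1 was called higher when TMM was left out (0.32, edgeR adjusted p = 0.0367) and when PCL-E day 7 was left out (0.20, adjusted p = 0.0173).

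Mt-cyb, the mitochondrial subunit of complex III, stood at 3895, 3601, 3946 and 3749 normalised CPM on day 3 and at 3707, 3103, 3810 and 2764 on day 7 (-0.36 ± 0.09, edgeR adjusted p = 0.0166). Mt-atp8 stood at 610.0, 582.7, 559.5 and 631.0 and then at 574.8, 497.8, 892.5 and 431.2 (-0.64 ± 0.19, edgeR adjusted p = 0.0302), and Mt-atp6 at 2345, 2339, 2209 and 2404 and then at 2581, 2202, 3216 and 1946 (-0.48 ± 0.13, adjusted p = 0.0189). Both are subunits of the membrane part of ATP synthase, and their reading frames overlap, as do those of Mt-nd4l and Mt-nd4. In normalised CPM the S7 libraries of day 7 were the lowest of the 8 for Mt-cyb, Mt-atp8 and Mt-atp6. For Mt-atp8 and Mt-atp6 the PCL-E library of day 7 was the highest. In the authors' FPKM, PCL-S was above PCL-O on day 7 in all 3 genes, while PCL-SE was below it. Mt-cyb stood at 2942.5 in PCL-S against 2905.5 in PCL-O, Mt-atp8 at 2644.5 against 2524.3 and Mt-atp6 at 3505.0 against 3395.6. Mt-cyb, Mt-atp8, Mt-atp6 and Mt-nd2 lost their calls without TMM (-0.13, -0.42, -0.26 and -0.35) and also without PCL-SE day 7, which left 6 mitochondrial members lower. Mt-atp8 had a log2 fold change of -0.27 (edgeR adjusted p = 0.0723) without PCL-E day 7.

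**Figure D4:**
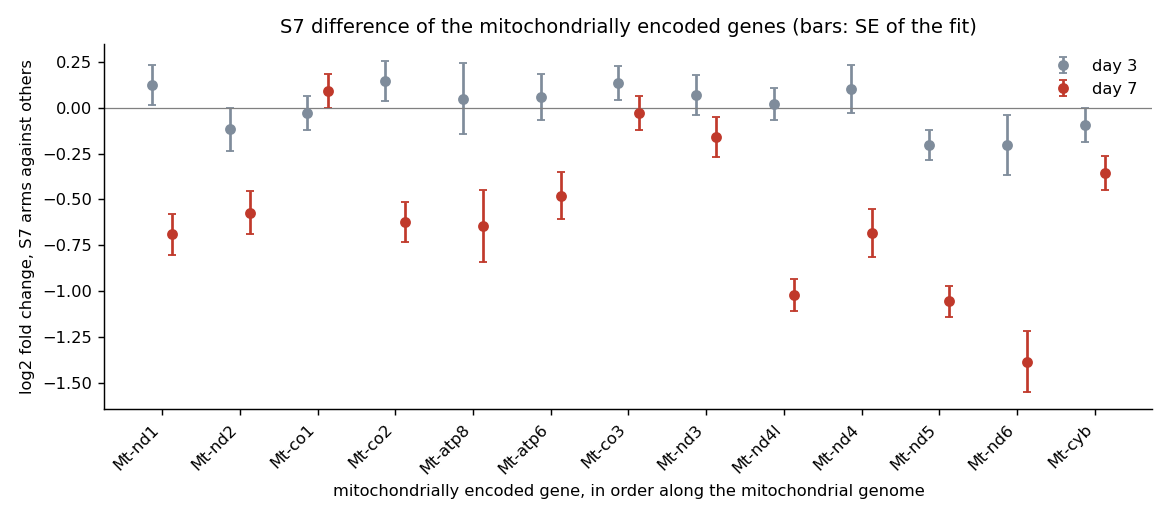
Log2 fold change of the 13 mitochondrially encoded genes in the arms with S7 against those without (points, with the SE of the fit as bars), in their order along the mitochondrial genome, on day 3 (grey) and day 7 (red). Day 3 values lie near 0. On day 7 Mt-nd4l, Mt-nd5 and Mt-nd6 lie at -1.02, -1.06 and -1.39, and Mt-co1 at 0.09. Mt-nd4, between Mt-nd4l and Mt-nd5 in the order, lies at -0.68.

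Within the mitochondrial class, shares of counts are free of scaling between libraries. The Mt-nd genes made up 20.9%, 19.6%, 19.2% and 19.6% of the class on day 3 and 21.2%, 14.7%, 20.5% and 13.7% on day 7. Mt-co1 made up 43.3%, 43.2%, 44.5% and 42.8% on day 3 and 40.6%, 49.4%, 41.0% and 52.1% on day 7. Both shares stood apart in the S7 libraries of day 7, the first lower and the second higher. Mt-nd5 had 14.8%, 12.6%, 13.4% and 12.4% of the counts of Mt-co1 on day 3 and 15.8%, 6.89%, 13.6% and 6.33% on day 7. In plain CPM, the Mt-nd genes summed to 6534, 5147, 7896 and 4667 on day 7 and the Mt-co genes to 17780, 23233, 22509 and 23536.

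Per length, in the authors' FPKM, the nuclear members tested had a median of 51.1, 51.3, 54.1 and 55.7 on day 3 and of 51.4, 108.7, 61.6 and 107.0 on day 7. The mitochondrial members had medians of 1515, 1439, 1455 and 1527 and then of 1433, 1120, 1680 and 948.9. The highest level per length was that of Mt-co1 in all libraries, at 8704 in PCL-O on day 3. In that library Mt-co3 followed at 3752, Mt-co2 at 3140, Mt-atp6 at 3045 and Mt-cyb at 3014. The highest nuclear level there, 340.1 for Atp5f1b, lay between Mt-nd3 (417.3) and Mt-nd6 (325.7). Each of these is 1 library, so the order of close neighbours carries no error.

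Day 7 was compared with day 3 separately without and with S7. Without S7, no member of either class was called (0.671% of all genes were higher and 0.935% lower), with medians of -0.02 and 0.04. At an unadjusted p under 0.05 there were 6 of 80 nuclear members and 1 of 13 mitochondrial members, beside 2514 of 15942 genes. Without PCL-O day 7, 3 mitochondrial members were called higher and 1 nuclear member lower. With S7, 67 nuclear members were higher and Ndufa4l2 was lower, with a median of 0.58, and 8 mitochondrial members were lower, with a median of -0.38 (24.4% of all genes were higher and 26.4% lower). With library totals only, without TMM, these medians were 0.89 and -0.072. In plain CPM the mitochondrial sum went from 33778 on day 3 to 38481 on day 7 in PCL-E, which has no S7, and from 32346 to 35052 in PCL-S, with no test of these sums. This comparison shares its day 7 libraries with the S7 comparison on day 7. The change of the S7 difference between the days is tested by the interaction term. It was called higher for 56 of 80 nuclear members and lower for Ndufa4l2, and lower for 6 of 13 mitochondrial members, beside 13.2% higher and 15.5% lower among all genes. The number of nuclear members fell to 24 to 33 when any 1 of the 4 day 3 libraries or PCL-S day 7 was left out, and that of mitochondrial members to 2 or 3 without any 1 day 3 library.

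E7 gave no call over both days, in 0 of 15942 genes by edgeR, against 1 gene by DESeq2. At an unadjusted p under 0.05 there were 589 genes and 0 members, and the nuclear median was 0.04. Single arms have no replicate check. PCL-E on day 7 exceeded PCL-O for all 13 mitochondrial members, with a median log2 ratio of 0.24 and 0 of them past 2-fold (0.715% of all genes were past 2-fold upward). PCL-SE, which holds E7 as well, was below PCL-S for the mitochondrial sum, at 34148 against 35052 CPM. In the nuclear class PCL-E exceeded PCL-O for 50 of 80 members, with a median of 0.06. Over all genes tested it did so for 7950 of 15942 and was below for 7945. Among cytosolic ribosomal proteins PCL-E was above PCL-O for 76 of 82, and among mitochondrial ribosomal proteins for 66 of 74. PCL-S was 2-fold or more above PCL-O on day 7 for 7 nuclear members (5.28% of all genes) and PCL-SE for 5 (4.79% of all genes), with medians of 0.69 and 0.64.

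Genes around the chain were read from lists of related functions, whose counts for S7 on day 7 stand beside 24.9% higher and 26.2% lower among all genes tested, and 34.4% and 29% among the abundant ones. Among assembly factors, 29 of 52 were higher and 1 lower with S7 on day 7 (median 0.54). Cox14, which stabilises newly made Mt-co1 protein, stood at 7.57, 15.9, 5.87 and 16.7 normalised CPM on day 7 (1.28 ± 0.19, edgeR adjusted p = 0.00175). Uqcc2, needed for cytochrome b synthesis, stood at 10.6, 25.4, 12.1 and 24.9 (1.15 ± 0.11, edgeR adjusted p = 0.000445). The gene that fell was Cox20, a chaperone of the Mt-co2 protein, at 15.9, 9.82, 17.7 and 9.46 (-0.80 ± 0.11, edgeR adjusted p = 0.00129). Of 17 genes for electron carriers and coenzyme Q synthesis 11 were higher and 0 lower (median 0.50), among them Coq5, a methyltransferase of coenzyme Q synthesis (1.02 ± 0.15, edgeR adjusted p = 0.00172). Cytochrome c (Cycs) stood at 7.31, 8.82, 6.91 and 9.80 and did not pass (0.39 ± 0.15, edgeR adjusted p = 0.0638).

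Among genes that keep, copy and transcribe mitochondrial DNA, 12 of 28 were higher and 0 lower (median 0.35), beside 24.9% higher and 26.2% lower among all genes. Polrmt, the mitochondrial RNA polymerase, stood at 14.6, 30.8, 16.2 and 31.8 normalised CPM on day 7 (1.02 ± 0.10, edgeR adjusted p = 0.000449). Twnk, the helicase of mitochondrial DNA replication, stood at 13.4, 32.0, 13.9 and 33.4 (1.26 ± 0.10, edgeR adjusted p = 0.000237). Tfam, which packages the DNA and starts transcription, stood at 17.6, 25.2, 20.3 and 25.4 (0.42 ± 0.10, edgeR adjusted p = 0.0143). All 3 were high in both arms with S7.

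Of 13 regulators of mitochondrial biogenesis, 5 were higher and 2 lower (median 0.40), beside 24.9% and 26.2% of all genes. Esrra, a nuclear receptor that drives respiratory genes, rose by 0.66 ± 0.09 (edgeR adjusted p = 0.00152), Nrf1 by 0.46 ± 0.10 (adjusted p = 0.00761) and Yy1 by 0.40 ± 0.09 (adjusted p = 0.00908). Gabpa, the DNA-binding subunit of its complex, fell by 0.38 ± 0.09 on the log2 scale (edgeR adjusted p = 0.0106), at 64.0, 46.4, 65.4 and 53.2 normalised CPM on day 7. Ppargc1b, a coactivator, rose at under 1 CPM in all libraries (edgeR adjusted p = 0.0137). Ppargc1a, the related coactivator, had 0 counts in PCL-O on both days and at most 0.530 normalised CPM elsewhere, and did not pass (edgeR adjusted p = 0.127). The tricarboxylic acid cycle and pyruvate dehydrogenase list had 10 of 17 higher and 1 lower (median 0.32), the import, carrier and membrane list 16 of 24 higher and 1 lower (0.43), and the uncoupling and mitophagy list 3 of 5 higher and 1 lower (0.52). In these lists Suclg1, of succinyl-CoA ligase, rose by 0.88, Timm50, of the inner membrane import channel, by 1.00, and Ucp2, an inner membrane carrier, by 1.27, whereas Dld, shared by several dehydrogenases, fell by 0.44 and Dnm1l, which divides mitochondria, by 0.63 on the log2 scale.

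Other large gene sets moved the same way on day 7. Cytosolic ribosomal proteins had 70 of 82 higher and 0 lower (median 0.80), mitochondrial ribosomal proteins 70 of 74 and 0 (0.73), and proteasome subunits 31 of 36 and 0 (0.52). On day 3, 24 of 82 cytosolic ribosomal proteins were higher (median 0.38), against 0 of 80 nuclear respiratory members. The summed level of 7 osteoblast markers, mostly the collagen gene Col1a1, was 19606, 33294, 21070 and 30909 CPM on day 3 and 26088, 7370, 16402 and 8105 CPM on day 7. This sum was above both arms without S7 in both arms with it on day 3 and below them on day 7. The markers differed in direction: of 6 tested, 1 was called higher and 3 lower for S7 on day 7. On day 7 Runx2, a transcription factor of osteoblasts, stood at 19.6, 30.2, 24.1 and 35.2 CPM. Spp1, a bone matrix protein, stood at 1296, 1680, 1022 and 2795 CPM, and both were above in the arms with S7. Alpl, at 13.2, 0.698, 8.60 and 1.33 CPM, and Ibsp, at 0.182, 0, 0.335 and 0 CPM, were below in those arms, as Col1a1 was. The part of these markers in the member differences was not tested.

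Gene length also moved with the S7 difference on day 7. The members are short: the nuclear ones tested had a median length of 0.325 times that of all genes tested, and 97.5% of them were shorter than the median gene. Over 10 equal groups of all genes by length, the median log2 fold change went from 0.27 in the shortest to -0.40 in the longest. In the shortest group, 31.7% of genes were called higher, and the 48 nuclear members in it had a median of 0.62. With the length trend removed within each library, 58 nuclear members were higher (median 0.45) and 12 mitochondrial members lower (median -0.79). The median of all genes in that fit was 0.01. How many of all genes were called in it is not given here. The mitochondrial members had a median length of 0.367 times that of all genes tested.

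**Figure D5:**
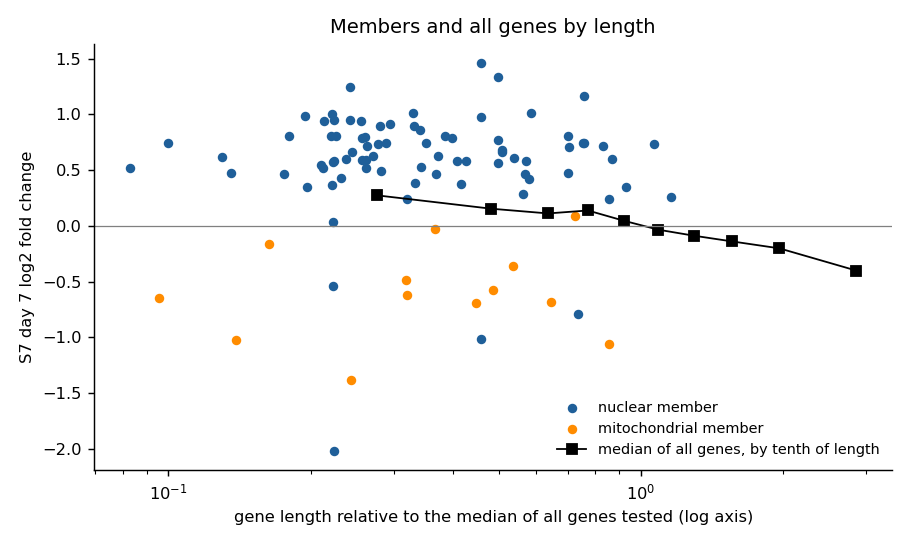
Log2 fold change with S7 on day 7 against gene length relative to the median gene tested (log axis), for nuclear members (blue), mitochondrial members (orange) and the median of all genes in 10 groups by length (black squares). The squares go from 0.27 to -0.40 with length, most nuclear members lie above them and the mitochondrial members below, Mt-co1 being at 0.09.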

How the data were processed

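Messenger RNA of 8 libraries (4 arms, 2 days) was analysed. Whole-number counts per gene were deposited by the authors in a single table, as were FPKM values scaled per length and total, per the file headers. The aligner, counting tool, strandedness and annotation were not given in the sources used here. Of its lines, the table had 10 lines of annotation fragments, which were dropped. In edgeR 4.0.16 (R 4.3.3), counts passing filterByExpr were scaled with TMM and fitted with terms for S7, day, S7 by day, and E7, leaving 3 residual degrees of freedom and a common biological coefficient of variation of 0.137. Quasi-likelihood F-tests were adjusted over all 15942 genes by the Benjamini-Hochberg method, and an adjusted p under 0.05 was called. Each SE was derived as the absolute log2 fold change divided by the square root of the F statistic of its test. The code was tested on simulated data. Normalised CPM are CPM after TMM, and class sums are plain CPM. Single libraries were paired by the log2 ratio of normalised CPM after adding 2 to each. Gene length was derived from the deposited counts and FPKM. At these depths 3 counts equal 0.0718 to 0.0910 CPM, and such floors cover counting error only.

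Genes given by value in every library are the mitochondrial members, the isoform pairs, the succinate dehydrogenase subunits, the largest called rise and fall in each complex and comparison with at least 5 CPM, up to 4 called genes a direction from each list, and 8 fixed reference genes of the pathway. Ndufa9, Ndufs1, Ndufv1, Ndufa1, Uqcrc2, Uqcrb, Cox5a, Atp5f1b, Atp5pb and the rotor ring genes were named after their values were seen. The members, lists and fit were chosen with earlier results of these data known. Alternatives were DESeq2 1.42.0, other scalings, no filter, an additive fit of arm and day, no E7 term, removal of a length trend and leaving out each library. Tables used Python 3.11.15 with pandas 2.3.3 and matplotlib 3.10.9.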

Additional observations from a re-analysis of the deposited data

Results flagged for a closer look

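For 7 members named by the rule, the S7 difference itself differed between day 3 and day 7 by the interaction term of the edgeR fit. Among nuclear members, the log2 change of the difference was 1.30 ± 0.12 for Ndufa7 (SE, edgeR adjusted p = 0.00165), 0.89 ± 0.12 for Sdhb (adjusted p = 0.00400), 1.16 ± 0.16 for Uqcr10 (adjusted p = 0.00418), 0.93 ± 0.11 for Cox7a2 (adjusted p = 0.00315) and 0.98 ± 0.13 for Atp5if1 (adjusted p = 0.00357). Among mitochondrial members it was -1.18 ± 0.23 for Mt-nd6 (edgeR adjusted p = 0.0122) and -0.77 ± 0.15 for Mt-co2 (adjusted p = 0.0131). The 5 nuclear calls held in each fit that left out 1 library. Mt-nd6 missed the threshold without PCL-S day 3, PCL-SE day 3 or PCL-S day 7 (adjusted p = 0.0558 to 0.0593), and Mt-co2 without any 1 of the day 3 libraries (adjusted p = 0.0665 to 0.0744). Each arm and day has 1 library, so no group was large enough to look for libraries standing apart.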

How the results depend on the processing

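No paired analysis was possible because each arm and day has 1 library and the labels carry no replicate numbers. Of 94 calls of named genes, 92 held in DESeq2, 93 with DESeq2-style size factors, 93 without the low-count filter, 92 without the E7 term, 94 with scaling that leaves out mitochondrial genes, 88 with the length trend removed and 84 with library totals only. None turned its direction in any of these. Under the additive fit of arm and day 3 of 73 held. The cause of the differences below was not tested, apart from the fewer libraries where 1 was left out.

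For S7 on day 7, library totals only gave a nuclear median of 0.85, a mitochondrial median of -0.40, and 1 mitochondrial member higher and 6 lower. Removing the length trend gave medians of 0.45 and -0.79. The additive fit of arm and day, which averages S7 over both days, called 1059 genes, with 0 nuclear members higher, 0 mitochondrial members lower and medians of 0.35 and -0.28; its values also stand for S7 on day 3, where it gave the same. Leaving out 1 library gave 5003 to 8327 genes, 58 to 70 nuclear members higher, 0 to 1 mitochondrial members higher, 6 to 10 lower, and medians of 0.59 to 0.72 and of -0.77 to -0.42.

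For S7 on day 3, DESeq2 called 2 nuclear members higher, 2 lower and 1 mitochondrial member lower. DESeq2-style size factors gave 2 lower, no filter 1 higher, no E7 term 1 higher and 2 lower, and removing the length trend 1 higher and 3 lower. Leaving out 1 library gave 257 to 3847 genes, 0 to 10 nuclear members higher, 0 to 5 lower and 0 to 1 mitochondrial members lower.

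For day 7 against day 3 without S7, DESeq2 called 827 genes and the additive fit 6, with medians of 0.29 and -0.19. Leaving out 1 library gave 0 to 1347 genes, 0 to 1 nuclear members lower, 0 to 3 mitochondrial members higher and mitochondrial medians of -0.070 to 0.23. With S7, library totals only gave medians of 0.89 and -0.072 and 1 mitochondrial member higher, and removing the length trend 0.38 and -0.68. The additive fit gave 6 genes, 0 nuclear members in either direction, 0 mitochondrial members lower and medians of 0.29 and -0.19. Leaving out 1 library gave 4479 to 9206 genes, 0 to 1 nuclear members lower and mitochondrial medians of -0.59 to -0.22.

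For the change between the days, library totals only gave medians of 0.84 and -0.46, and removing the length trend 0.44 and -0.88, with 11 mitochondrial members lower. Leaving out 1 library gave 1538 to 6219 genes, 24 to 65 nuclear members higher, 0 to 1 lower, 0 to 1 mitochondrial members higher, 2 to 9 lower, and mitochondrial medians of -0.89 to -0.33. For E7, DESeq2 called 1 gene.

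The log2 difference of the class sums with S7 on day 7 was 0.89 for nuclear members, or 0.67 after TMM, and 0.01 for mitochondrial members, or -0.22 after TMM and -0.26 without Mt-co1. That of the mitochondrial to nuclear ratio was -0.89, or -1.14 without Mt-co1 and Atp5f1b; on day 3 it was -0.06, or -0.041 without them.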
